A study of Mus musculus with 6 samples.

Results

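The genes described here encode plasma membrane and lysosomal carriers for amino acids, sugars, inositols, neurotransmitters and monocarboxylates. They are the genes of the Slc families 1, 2, 3, 5, 6, 7, 16, 36, 38 and 43 whose symbol the platform annotation gives for a probe. This rule found 103 of the 21893 genes with a symbol on the array, read by 139 probes. Of the 103, 100 name transporter genes. Slc2a4rg-ps, Slc6a19os and Slc7a6os share only the start of the symbol and encode no carrier of these families. For each gene the probe with the highest mean over the 6 arrays was used, and 31 of the 103 genes had more than 1 probe.

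Undifferentiated embryonic stem cells of the mouse line 46c (ESC) were compared with cells that the line gave after 5 days of neural differentiation (NPC). Each group has 3 arrays, described as biological replicates. Both groups carry GFP at Sox1, an early neural gene, on the strain background 129/Ola. The NPC were kept in medium with NB27 and Neuro2 supplements and were sorted by flow cytometry on GFP. The labels mention no sort of the ESC and give no gate for GFP, so state, medium and sorting cannot be told apart here. All cells come from 1 line. Values are quantile-normalised log2 signals of single-colour Agilent arrays. The arrays were of bulk cells, in which fewer cells of a type and less RNA per cell cannot be told apart.

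The labels were checked against marker genes. All 8 ES cell markers fell in NPC, with a mean log2 signal over the list of 13.4 to 13.5 on the ESC arrays and 5.62 to 6.33 on the NPC arrays. Of 8 neural progenitor markers, 6 rose, while Pax6 passed only with the replicate number as a block and Sox2 did not pass. Of 8 neuron markers 5 rose, and 3 rose with values under 6 set to 6. Gfap, the intermediate filament of astrocytes, had means of 5.42 and 5.08. All arrays ran from 1.03 to 16.18 with a median of 5.32. Values near the bottom of this scale are poorly resolved, and no detection calls were analysed, so for the transporters it is said where setting values under 6 to 6 ends a call. A gene whose values are all under 6 has no change on that scale and cannot be called.

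Cells take up nutrients through carriers of several kinds. Facilitative carriers let glucose run down its gradient, sodium-coupled carriers accumulate sugars, inositol and amino acids, and exchangers trade 1 amino acid for another. Some exchangers are light chains that reach the membrane only with a heavy chain of the Slc3 family. In ES cells, glycolysis and amino acid supply are known to be high. In the developing brain, carriers also clear glutamate and glycine from the extracellular space.

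Of the 103 genes, 10 were higher and 17 lower in NPC at a limma adjusted p under 0.05 (Benjamini-Hochberg over all 21893 genes). The 27 called genes are 26.2% of the list, and 20.6% of all genes were called. By direction, 9.71% of the list rose and 16.5% fell, against 11.1% and 9.54% of all genes. The median change of the list was -0.16 on the log2 scale, against 0.01 over all genes. Each change below is NPC minus ESC in log2 units, with its SE from 3 arrays a group. For all 27 called genes the groups did not overlap, so the 3 pairs of same-numbered arrays necessarily moved the same way. The calls were made on the same arrays, so neither point is separate support for them. The groups did not overlap in 42 of the 103 genes, or 40.8%, against 37.0% of all genes.

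Signals were low for many of these genes. In 42 of the 103, all 6 values were under 6, where this held for 33.5% of all genes. In 41 of the 103 all were at 6 or above. With values under 6 set to 6, 2 genes were higher (1.94%, against 6.97% of all genes) and 8 lower (7.77%, against 5.92%), together 9.71% of the list against 12.9% of all genes. These 10 were called in the same direction without the floor. With the replicate number as a block, 14 were higher (13.6%, against 18.9% of all genes) and 24 lower (23.3%, against 16.7%), or 36.9% of the list against 35.7% of all genes. Where genes with a mean under 6 were left out, 13 of 53 were called, or 24.5% against 25.7% of all genes kept. Without ESC replicate 1, 6 members were higher and 9 lower, where 1475 and 1289 of all genes were. Without NPC replicate 1, 6 members were higher and 12 lower, where 1555 and 1421 of all genes were. With all 6 arrays, 2423 of all genes were higher and 2089 lower, so calls were lost over the whole array too.

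**Figure D1:**
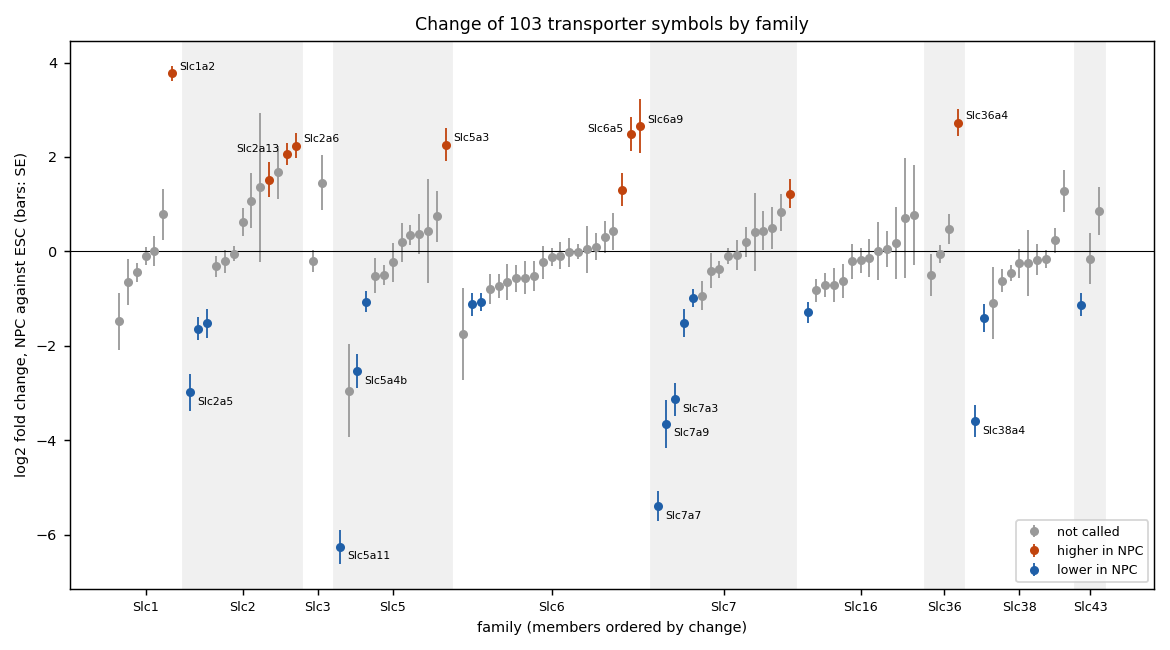
Log2 fold change of NPC against ESC for each of the 103 genes, grouped by family on the x axis and ordered by change within it. Points are limma estimates, bars are SE, and colours mark calls at an adjusted p under 0.05. The falls of Slc5a11 (-6.26) and Slc7a7 (-5.39) lie farthest from 0, and 12 of 13 Slc16 genes were not called. Over all genes 20.6% were called.

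**Figure D2:**
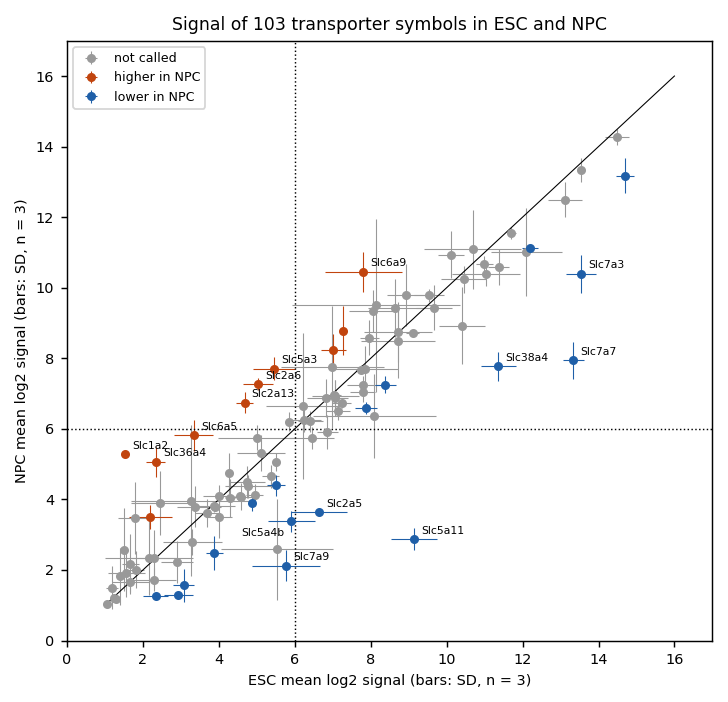
Mean log2 signal of each of the 103 genes in ESC (x axis) and NPC (y axis), with SD bars over 3 arrays, the line of equal signal and dotted lines at 6. Slc7a7, Slc7a3 and Slc38a4 lie far below the line with all values above 6, while Slc1a2 and Slc36a4 rose with all values under 6.

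The carriers of cationic amino acids held 2 large falls. Slc7a7 encodes a light chain that trades cationic for neutral amino acids together with the heavy chain of Slc3a2. Its signal was 13.14, 13.65 and 13.20 on the ESC arrays and 7.79, 8.53 and 7.50 on the NPC arrays. All NPC values thus lay more than 4 log2 units below all ESC values. The change was -5.39 ± 0.33 (adjusted p = 0.000258). Slc7a3, a cationic amino acid carrier that needs no heavy chain, read 13.34, 13.98 and 13.27 in ESC and 9.80, 10.85 and 10.53 in NPC. It fell by 3.14 ± 0.35 (adjusted p = 0.00222). Its locus overlaps that of Snx12, which changed the other way, by 0.90 ± 0.22.

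Near relatives of these carriers had other values. Slc7a6, which encodes a light chain of the same exchange activity as Slc7a7, read 7.05, 7.33 and 6.67 in ESC and 8.46, 8.54 and 7.71 in NPC. It rose by 1.22 ± 0.31 (adjusted p = 0.042), a call that ended without ESC replicates 1, 2 or 3 and without NPC replicates 1 or 2, with a highest adjusted p of 0.14, and with the floor of 6 (adjusted p = 0.0898). Slc7a1, the widely expressed relative of Slc7a3, read 9.78, 10.47 and 10.09 in ESC and 10.80, 11.66 and 10.36 in NPC. The groups overlapped and the change of 0.83 ± 0.39 did not pass (adjusted p = 0.222). Slc7a2, a further member of that subfamily, had values of 1.19 to 2.67 on all arrays. Differences between the changes of these genes were not tested.

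The heavy chain gene Slc3a2 read 13.45, 13.61 and 13.59 in ESC and 12.96, 13.65 and 13.40 in NPC, and its change of -0.21 ± 0.23 did not pass (adjusted p = 0.626). Slc7a5, a light chain for large neutral amino acids that pairs with Slc3a2, read 11.31, 11.52 and 9.21 in ESC and 11.27, 12.12 and 9.88 in NPC. Replicate 3 was lowest in both groups, and the change of 0.41 ± 0.83 did not pass (adjusted p = 0.81). Slc7a11, which imports cystine in exchange for glutamate, lay between 1.32 and 2.75 on all arrays, and whether its probe measures the transcript was not checked here.

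The second heavy chain gene, Slc3a1, is known from the cystine and dibasic amino acid transport of kidney. It read 2.87, 2.87 and 1.58 in ESC and 4.50, 4.32 and 2.85 in NPC. The difference of 1.45 ± 0.58 was called only with the block (adjusted p = 0.152 and 0.00413). Its light chain partner Slc7a9 read 5.52, 6.78 and 5.03 in ESC and 2.37, 1.62 and 2.38 in NPC, and fell by 3.65 ± 0.50 (adjusted p = 0.00459). With the floor of 6, Slc7a9 differed by -0.26 and was not called. Slc7a10, which carries small neutral amino acids, fell by 1.51 ± 0.30 (adjusted p = 0.0168) from 3.38, 2.90 and 2.93 to 1.34, 1.26 and 2.08, all under 6. The call of Slc7a10 ended without ESC replicate 1 (adjusted p = 0.0736) and without NPC replicates 1 or 2. Its locus overlaps that of Lrp3, which rose by 3.62 ± 0.30.

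In the Slc7 family 1 of 16 genes rose and 5 fell, where 11.1% of all genes rose and 9.54% fell. The fall of Slc7a14 depends on the probe. The probe used read 4.96, 4.86 and 4.78 in ESC and 4.06, 3.66 and 3.93 in NPC, a fall by 0.98 ± 0.19 (adjusted p = 0.0163) with all values under 6. Its other probe went from a mean of 1.44 to 4.91, a change of 3.47 ± 0.30 in the opposite direction. Which of them reads Slc7a14 was not checked here, so no direction is given for this gene, although it counts among the 5 falls. Without ESC replicate 1 (adjusted p = 0.0824) or NPC replicate 2 the first probe did not pass. Slc7a4 differed by -0.94 ± 0.31 and was called only with the block (adjusted p = 0.0923 and 0.0148).

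The promoter of Slc7a7 is shown because the core of the amino acid response element, TGATGNAA on either strand, was found in it. This motif is bound by ATF4 and its partners when amino acids are short. The window holds 250 bases before to 50 bases after a listed transcription start, from RefSeq, build GRCm38.p6, minus strand, chr14:54417895-54418194, and is the first of 5 windows of the gene. Capitals mark the matches, which begin 141 bases and 1 base before the start.
Slc7a7: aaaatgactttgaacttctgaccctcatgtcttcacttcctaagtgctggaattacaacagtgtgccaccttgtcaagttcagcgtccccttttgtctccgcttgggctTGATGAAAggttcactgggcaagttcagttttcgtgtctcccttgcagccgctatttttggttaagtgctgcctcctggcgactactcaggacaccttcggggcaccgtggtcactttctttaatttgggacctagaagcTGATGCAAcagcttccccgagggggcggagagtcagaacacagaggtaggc
Of 76 members with a promoter window in the table, 4 held this motif (5.26%), against 4.51% of all 27025 genes there. The other members were Slc1a4, Slc6a21 and Slc7a11, and none of them was called. The E-box CACGTG stood in 12 of the 76 (15.8% against 8.09% of all genes), with 2 called members, Slc5a1 and Slc7a14. The hypoxia response core ACGTG, which each E-box contains, stood in 23 (30.3% against 21.8%), with 5 called members.

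The myo-inositol carriers changed in opposite directions. Inositol is an osmolyte and the base of phosphoinositide lipids, and it is abundant in brain. Slc5a11, a sodium-coupled inositol carrier, read 8.93, 9.81 and 8.67 in ESC and 3.14, 2.95 and 2.54 in NPC, a fall by 6.26 ± 0.36 (adjusted p = 0.000225). With values under 6 set to 6 the fall was 3.14 in size and still passed (adjusted p = 0.00886), whereas a dimmer probe of the gene gave -1.73, which missed the threshold. Slc5a3, the other sodium-coupled inositol carrier, read 5.83, 4.81 and 5.69 in ESC and 7.75, 7.36 and 8.01 in NPC. It rose by 2.26 ± 0.35 (adjusted p = 0.00666). Slc2a13, a proton-coupled inositol carrier of brain, read 4.73, 4.44 and 4.86 in ESC and 6.97, 6.85 and 6.41 in NPC, a rise by 2.07 ± 0.23 (adjusted p = 0.00223).

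With the floor of 6, Slc5a3 rose by 1.70 (adjusted p = 0.00905) and Slc2a13 did not pass (0.75, adjusted p = 0.0606). The second probes of Slc5a3 and Slc2a13, with means under 4, gave 0.67 and 0.38 and did not pass. The gene Slc5a3 lies within the locus of Mrps6, which encodes a mitochondrial ribosomal protein and differed by 0.46 ± 0.18 without passing (adjusted p = 0.143). Whether the probe of Slc5a3 also reads transcripts of Mrps6 was not tested.

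**Figure D3:**
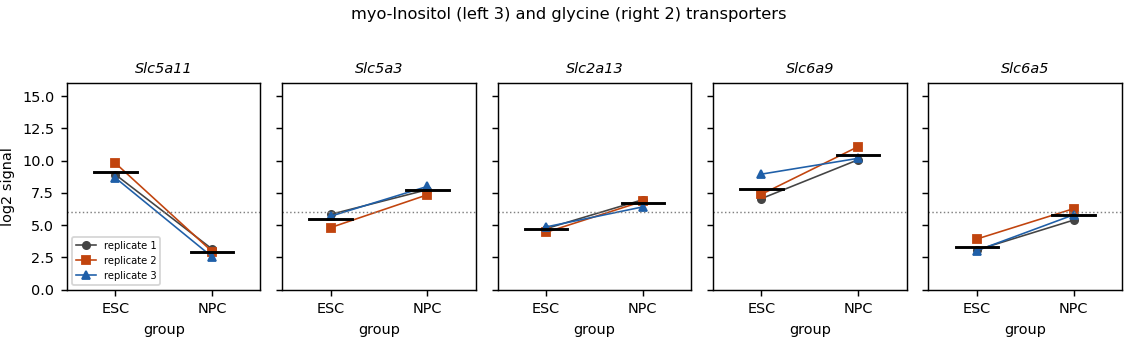
Log2 signal on each array of the myo-inositol carriers Slc5a11, Slc5a3 and Slc2a13 and the glycine carriers Slc6a9 and Slc6a5 in ESC and NPC. Lines join arrays of the same replicate number, bars are group means and the dotted line is at 6. Slc5a11 fell in all 3 pairs, and the other carriers rose in all 3.

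The promoters of these 3 genes, whose levels went in opposite directions, are shown from RefSeq, build GRCm38.p6. None of the searched motifs was found in them, so no letter is in capitals. That of Slc5a11 (chr7:123214616-123214915, plus strand) has 2 CG dinucleotides in its 300 bases, that of Slc2a13 (chr15:91573212-91573511, minus strand) has 13, and that of Slc5a3 (chr16:92058072-92058371, plus strand) has 38. The median over all 32851 windows of the table was 7.
Slc5a11: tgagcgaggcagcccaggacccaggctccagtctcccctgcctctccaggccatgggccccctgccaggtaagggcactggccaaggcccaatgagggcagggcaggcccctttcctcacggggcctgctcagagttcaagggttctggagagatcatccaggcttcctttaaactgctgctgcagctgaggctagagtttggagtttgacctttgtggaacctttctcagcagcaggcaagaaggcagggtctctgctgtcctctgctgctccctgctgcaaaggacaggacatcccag
Slc2a13: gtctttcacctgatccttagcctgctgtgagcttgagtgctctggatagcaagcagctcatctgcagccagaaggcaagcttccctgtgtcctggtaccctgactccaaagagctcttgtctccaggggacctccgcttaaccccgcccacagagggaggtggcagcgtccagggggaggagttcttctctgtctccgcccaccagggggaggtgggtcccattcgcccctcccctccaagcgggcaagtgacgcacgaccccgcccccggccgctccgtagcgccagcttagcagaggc
Slc5a3: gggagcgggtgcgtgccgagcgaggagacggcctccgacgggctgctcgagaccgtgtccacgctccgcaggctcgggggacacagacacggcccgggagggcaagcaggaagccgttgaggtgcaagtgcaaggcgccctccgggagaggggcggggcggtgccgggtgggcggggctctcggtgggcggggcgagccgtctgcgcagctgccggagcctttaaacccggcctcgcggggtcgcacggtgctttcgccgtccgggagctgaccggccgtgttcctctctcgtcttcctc

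Of the facilitative sugar carriers of the Slc2 family, 3 of 13 rose and 3 fell, against 11.1% and 9.54% of all genes. Slc2a3, which encodes GLUT3, a glucose carrier of early embryos and neurons, read 14.94, 14.71 and 14.46 in ESC and 12.62, 13.42 and 13.51 in NPC. It fell by 1.52 ± 0.30 (adjusted p = 0.0179), a call that ended without ESC replicate 1 (adjusted p = 0.0802) or ESC replicate 2. Slc2a1, which encodes the widely expressed GLUT1, read 14.27, 14.85 and 14.33 in ESC and 14.30, 14.47 and 14.05 in NPC. Its groups overlapped and the change of -0.21 ± 0.24 did not pass (adjusted p = 0.636).

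Slc2a6, a relative found on lysosomes, rose by 2.24 ± 0.26 (adjusted p = 0.00242) from 5.12, 5.37 and 4.59 to 7.17, 7.46 and 7.16, and by 1.27 with the floor of 6. A second probe of Slc2a6 gave 0.17, with no call. Slc2a4, which encodes the insulin-responsive GLUT4, read 7.22, 7.34 and 7.24 in ESC and 9.16, 9.20 and 7.99 in NPC. Its rise by 1.52 ± 0.37 (adjusted p = 0.0346) was no longer called without ESC replicates 1, 2 or 3 or NPC replicates 1 or 2 (highest adjusted p 0.121), and with the floor of 6 the adjusted p was 0.088. The change of NPC replicate 3 was the smallest of the 3 pairs.

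The fructose carrier gene Slc2a5 and its chromosomal neighbour Slc2a7 both fell. Slc2a5 went from 6.51, 7.42 and 5.95 to 3.74, 3.67 and 3.50, by -2.99 ± 0.39 (adjusted p = 0.00377). Slc2a7 went from 2.62, 2.81 and 3.36 to 1.40, 1.26 and 1.22, by -1.64 ± 0.25 (adjusted p = 0.00622). All values of Slc2a7 were under 6, and with that floor Slc2a5 differed by -0.64 and was not called. Among the members there were 12 pairs of adjacent protein-coding genes in RefSeq order. Slc2a5 with Slc2a7 was the only such pair with both genes called, 4 pairs had 1 called gene and 7 had none.

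In the Slc5 family of sodium-coupled carriers, 1 of 13 genes rose and 3 fell, against 11.1% and 9.54% of all genes. Beside the inositol carriers, Slc5a4b fell by 2.54 ± 0.36 (adjusted p = 0.00539) from 5.85, 5.32 and 6.56 to 3.12, 3.31 and 3.70. Its neighbour and close paralog Slc5a4a differed by 0.19 ± 0.42 without passing, and since probes may cross-react between such copies, both values are uncertain. Slc5a1, the intestinal glucose carrier, had values of 1.22 to 2.70, and its fall by 1.07 ± 0.22 (adjusted p = 0.0208) ended without ESC replicate 1 or NPC replicates 1 or 2 (highest adjusted p 0.0756). With the floor of 6 neither Slc5a4b nor Slc5a1 was called. The iodide carrier gene Slc5a5 differed by -2.95 ± 0.99 and reached the threshold only under the block (adjusted p = 0.0957 and 0.0454). With the floor of 6 its difference was -0.26, without a call. Slc5a6, the multivitamin carrier, read 9.66, 10.15 and 9.19 in ESC and 9.69, 9.92 and 8.71 in NPC and did not pass.

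Among carriers of small neutral amino acids, Slc38a4 fell. It encodes a sodium-coupled carrier and is known in the mouse as an imprinted gene. It read 11.79, 11.41 and 10.88 in ESC and 7.98, 7.28 and 8.04 in NPC, a change of -3.59 ± 0.34 (adjusted p = 0.0011). The neighbouring genes Slc38a1 and Slc38a2 encode carriers of the same transport system. Slc38a1 read 11.58, 11.80 and 11.73 in ESC and 11.39, 11.74 and 11.52 in NPC and differed by -0.16 ± 0.19 (adjusted p = 0.657). Slc38a2, which is induced when amino acids are short, read 12.60, 11.02 and 12.68 in ESC and 10.75, 9.92 and 12.36 in NPC. Replicate 2 was lowest in both groups, the groups overlapped, and the change of -1.09 ± 0.76 did not pass (adjusted p = 0.415).

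Slc38a8 was the other called gene of the 11 in this family, with values of 3.68, 4.13 and 3.83 in ESC and 2.75, 1.93 and 2.74 in NPC (-1.40 ± 0.30, adjusted p = 0.0219). All its values were under 6, and its call ended without ESC replicates 1, 2 or 3 or NPC replicate 1 (highest adjusted p 0.0671). Slc38a9, a lysosomal arginine sensor upstream of mTORC1, read 8.20, 8.60 and 7.37 in ESC and 9.62, 9.74 and 8.65 in NPC. The groups did not overlap, and the difference of 1.28 ± 0.44 was called only with the block (adjusted p = 0.104 and 0.00499). Of its other 2 probes, one gave 1.67 ± 0.21 and passed without the block, and the other gave 0.75 ± 1.07 and was not called.

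Slc1a5 and Slc1a4 encode sodium-dependent exchangers of glutamine, serine and other neutral amino acids. Slc1a5 read 10.67, 10.84 and 9.72 in ESC and 9.61, 9.50 and 7.68 in NPC, with no overlap. Its difference of -1.48 ± 0.61 reached the threshold only under the block (adjusted p = 0.165 and 0.014), and its other probe, with -1.72 ± 0.42, passed without it. Slc1a4 read 11.44, 10.00 and 11.64 in ESC and 10.58, 9.99 and 10.57 in NPC, with no call (-0.65 ± 0.48, adjusted p = 0.448). In the Slc43 family, Slc43a3, known as a carrier of purine bases, fell by 1.13 ± 0.24 (adjusted p = 0.022) from 8.12, 8.67 and 8.36 to 7.15, 7.54 and 7.08. The call of Slc43a3 ended without ESC replicates 2 or 3 or NPC replicates 1 or 3 (highest adjusted p 0.0833). Slc43a1, a carrier of large neutral amino acids, read 9.12, 9.33 and 8.36 in ESC and 10.33, 10.29 and 8.78 in NPC and met the threshold under the block alone (0.86 ± 0.51, adjusted p = 0.33 and 0.0394).

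Of the 4 proton-coupled amino acid carriers of the Slc36 family, Slc36a4 rose by 2.73 ± 0.28 (adjusted p = 0.00158). It read 2.12, 2.60 and 2.29 in ESC and 4.64, 5.06 and 5.49 in NPC, all under 6, and a second probe gave -0.18, with no call. Slc36a1, a lysosomal carrier, read 7.66, 7.88 and 7.65 in ESC and 7.77, 7.73 and 7.54 in NPC (-0.06 ± 0.18, adjusted p = 0.884).

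**Figure D4:**
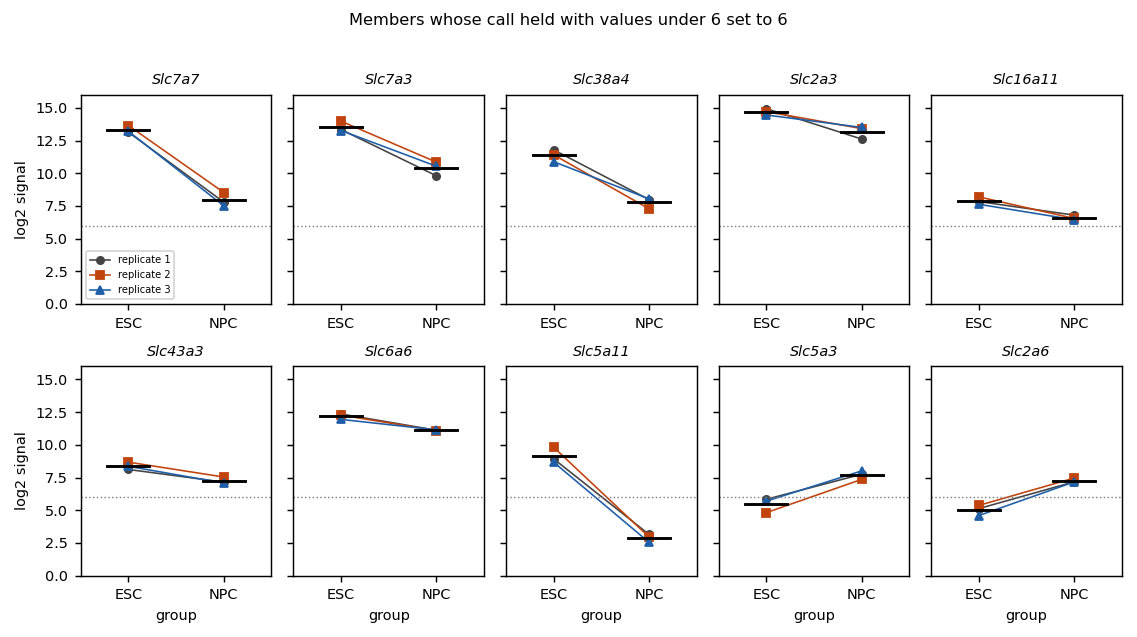
Log2 signal on each array of the 10 genes that were called both with and without values under 6 set to 6, in ESC and NPC. Lines join arrays of the same replicate number, bars are group means and the dotted line is at 6. Slc5a3 and Slc2a6 rose, and the other 8 genes fell in all 3 pairs.

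The carriers of transmitters and related amino acids include both glycine carriers. Slc6a9, which encodes GlyT1, a carrier found on glia, read 7.06, 7.39 and 8.96 in ESC and 10.07, 11.09 and 10.18 in NPC. It rose by 2.65 ± 0.57 (adjusted p = 0.0239), and its other probe rose by 3.02 ± 0.61. The call ended without ESC replicates 1 or 2 and without NPC replicates 1, 2 or 3, with a highest adjusted p of 0.0847, and with the floor of 6 (adjusted p = 0.0788). Its locus overlaps that of Ccdc24, which differed by 2.60 ± 0.78 without passing (adjusted p = 0.0716). Slc6a5, which encodes GlyT2 of glycinergic neurons, read 3.07, 3.92 and 3.02 in ESC and 5.39, 6.27 and 5.80 in NPC. It rose by 2.48 ± 0.36 (adjusted p = 0.00543), and by 0.09 without a call with the floor of 6.

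Slc1a2 and Slc1a3 encode the glutamate carriers of astrocytes and radial glia. Slc1a2 read 1.52, 1.45 and 1.58 in ESC and 5.26, 5.30 and 5.31 in NPC, a rise by 3.77 ± 0.16 (adjusted p = 0.00012) that lay wholly under 6. The other 2 probes of Slc1a2 had changes of 1.20 and -0.10, neither called. Slc1a3 read 8.84, 9.23 and 7.85 in ESC and 9.49, 10.20 and 8.57 in NPC. It was higher in NPC in each of the 3 pairs, and its difference of 0.78 ± 0.54 was called only with the block (adjusted p = 0.41 and 0.0198). Beside these, 3 of 7 markers of the astrocyte and oligodendrocyte lineage rose, namely Olig2, Pdgfra and Mbp, which are known from the oligodendrocyte lineage. With the floor of 6, Mbp alone passed. None of the 4 astrocyte markers rose: Gfap differed by -0.34, S100b by -0.16, Aqp4 by 0.75 and Aldh1l1 by -1.09, the last a fall only under the block (adjusted p = 0.0325). The mean log2 signal over that list was 5.04 to 5.46 on the ESC arrays and 5.97 to 6.52 on the NPC arrays. Whether cells of these lineages were present was not tested. Which cells gave the values of Slc1a2, Slc1a3, Slc6a9 and Slc6a5 was not tested either.

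The taurine carrier gene Slc6a6 fell by 1.08 ± 0.19 (adjusted p = 0.0113). It read 12.36, 12.27 and 11.95 in ESC and 11.12, 11.09 and 11.14 in NPC, and the call ended without ESC replicate 1 (adjusted p = 0.0624) or NPC replicate 2. The proline carrier gene Slc6a7 fell by 1.12 ± 0.24 (adjusted p = 0.0243) from 5.71, 5.26 and 5.57 to 4.44, 4.07 and 4.68. All these values were under 6, and the call ended without ESC replicates 1 or 3 or NPC replicates 1 or 2 (highest adjusted p 0.105). Slc6a17, a synaptic vesicle carrier, read 2.02, 2.83 and 1.73 in ESC and 3.87, 3.20 and 3.43 in NPC, all under 6. Its rise by 1.31 ± 0.35 (adjusted p = 0.0499) ended with the block (0.0519), without ESC replicates 1 or 3 and without any NPC replicate (highest adjusted p 0.169).

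In the whole Slc6 family 3 of 21 genes rose and 2 fell, against 11.1% and 9.54% of all genes. All values were under 6 in 14 of the 21, against 33.5% of all genes. With the block the counts were 2 and 6, against 18.9% and 16.7% of all genes. The creatine carrier gene Slc6a8 (-0.79 ± 0.32), Slc6a16 (-0.73 ± 0.26), Slc6a20a (-0.56 ± 0.29) and the neutral amino acid carrier gene Slc6a15 (-1.74 ± 0.97) passed only with it. The carriers of noradrenaline, dopamine and serotonin, Slc6a2, Slc6a3 and Slc6a4, had values of 1.35 to 4.18 on all arrays and did not pass. Slc2a10, a sugar carrier, also met the threshold under the block alone (1.68 ± 0.56, adjusted p = 0.0279). It read 2.30, 1.37 and 1.74 in ESC and 3.78, 2.34 and 4.32 in NPC, all under 6, so it has no change with that floor.

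Some carriers of the Slc16 family move lactate, pyruvate and ketone bodies. Of the 13 genes of the whole family, 1 fell and none rose, with the same counts under the block. Over all genes 9.54% fell and 11.1% rose, and with the block 16.7% and 18.9%. Slc16a11 fell by 1.29 ± 0.23 (adjusted p = 0.0111) from 7.83, 8.19 and 7.62 to 6.79, 6.54 and 6.44, and without ESC replicate 1 the adjusted p was 0.0521. Its neighbour Slc16a13 differed by 0.01 ± 0.61. Slc16a3, which encodes the lactate exporter MCT4, read 12.95, 13.62 and 12.78 in ESC and 12.02, 13.01 and 12.44 in NPC (-0.63 ± 0.35, adjusted p = 0.303). Slc16a1, which encodes MCT1, read 7.14, 7.66 and 6.41 in ESC and 7.17, 7.20 and 6.43 in NPC (-0.14 ± 0.40, adjusted p = 0.869). Another probe of Slc16a10 gave a fall by 2.60 ± 0.23, from a mean of 4.19 to 1.59, both under 6. The probe used here for Slc16a10 gave -0.71 and did not pass.

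Some carriers of this family reach the membrane with the chaperones encoded by Bsg and Emb. Bsg read 10.59, 8.97 and 12.03 in ESC and 8.69, 8.23 and 11.57 in NPC, with replicate 3 highest and replicate 2 lowest in both groups, and did not pass (-1.03 ± 1.14, adjusted p = 0.623). Emb fell by 1.16 ± 0.26 (adjusted p = 0.0277) from 12.42, 12.52 and 12.26 to 11.49, 11.47 and 10.75. The call of Emb ended without ESC replicates 1, 2 or 3 or NPC replicates 1 or 2 (highest adjusted p 0.106), and with the floor of 6 (0.0544). It was the only call among the 6 genes on the array from the list of transporter partners, where 20.6% of all genes were called. That list also holds Slc3a1 and Slc3a2, and under the block Slc3a1 was called as well.

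The genes that use the carried nutrients moved in both directions. Over all genes 11.1% rose and 9.54% fell, with a median of 0.01, and with the block 18.9% rose and 16.7% fell. Of 17 genes of glucose and lactate handling, 1 rose and 5 fell, with a median of 0.12, and with the block 4 rose and 4 fell. Pfkp, a phosphofructokinase, fell by 3.95 ± 0.72 (adjusted p = 0.0128, and 0.0588 as the highest without ESC replicate 1 or NPC replicate 1). Pdk1, an inhibitor of pyruvate dehydrogenase, fell by 2.39 ± 0.22 (adjusted p = 0.00109). Pfkfb4, a regulator of glycolysis, rose by 2.81 ± 0.44 (adjusted p = 0.00747). Under the block Pfkfb3 (1.46, adjusted p = 0.00639), Pfkm and Pdk2 rose as well, and the fall of Hk2 did not pass (adjusted p = 0.0592). The list of glutamine, glutamate and GABA handling also holds serine, glycine and glutathione enzymes, such as Phgdh, Psph, Shmt1 and Gss. Of its 18 genes, 5 rose, Phgdh among them, and 4 fell, with a median of -0.21. With the block 5 rose and 7 fell, with Shmt1, Gclm and Gss added to the falls. Gad2, which makes GABA, rose by 3.41 ± 0.44 and Abat, which breaks it down, by 2.86 ± 0.33. With the floor of 6 the value of Gad2 was 0.29. Glud1, which encodes glutamate dehydrogenase, fell by 1.49 ± 0.20.

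Of 20 genes of the amino acid response, among them Atf4, 3 rose and 4 fell, with a median of 0.47. The median over all genes was 0.01, and 11.1% of them rose and 9.54% fell. Vldlr rose by 4.17 ± 0.36 and Nupr1 fell by 3.63 ± 0.71, the latter not called without NPC replicates 1 or 2 (highest adjusted p 0.073) or with the floor of 6 (0.0914). Atf4 itself, the transcription factor of this response, differed by 0.64 ± 0.27 and did not pass (adjusted p = 0.167). Of 27 genes of amino acid sensing upstream of mTORC1, 2 rose and none fell, with a median of 0.11. With the block 4 rose and 2 fell, against 18.9% and 16.7% of all genes. The 2 that rose without the block are Tsc1 (1.19 ± 0.29) and Sesn1 (1.01 ± 0.20). The call of Tsc1 ended without ESC replicates 1, 2 or 3 or NPC replicates 1 or 2 (highest adjusted p 0.127) or with the floor of 6 (0.0705), and that of Sesn1 without ESC replicate 1 or NPC replicates 1 or 2 (highest adjusted p 0.0712).

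The spread between replicates was wide for some carriers. In 18 of the 103 genes the range over the 3 arrays was at least 1 log2 unit in ESC and in NPC alike. The replicates had the same order in both groups in 10 of the 18 and another order in 8, and the share among all genes was not counted. Over all genes the replicate number held 82.9% of the within-group sum of squares. With so few arrays, unrelated numbers would also hold a sizeable share, which was not computed here. Slc2a12, a sugar carrier, read 8.10, 10.36 and 5.96 in ESC and 10.47, 11.33 and 6.69 in NPC. Replicate 2 was highest and replicate 3 lowest in both groups, and the difference of 1.36 ± 1.58 did not pass (adjusted p = 0.643, and 0.0574 with the block). Slc6a15 had the opposite order, with 8.65, 6.27 and 9.37 in ESC and 6.05, 5.35 and 7.67 in NPC. Replicate 3 was lowest in both groups for 41 of the 103 genes (39.8%), against 39.1% of all genes. Replicate 2 was highest in both for 39 (37.9%), against 27.3% of all genes. What the replicate numbers share beyond the number is not given in the labels.

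**Figure D5:**
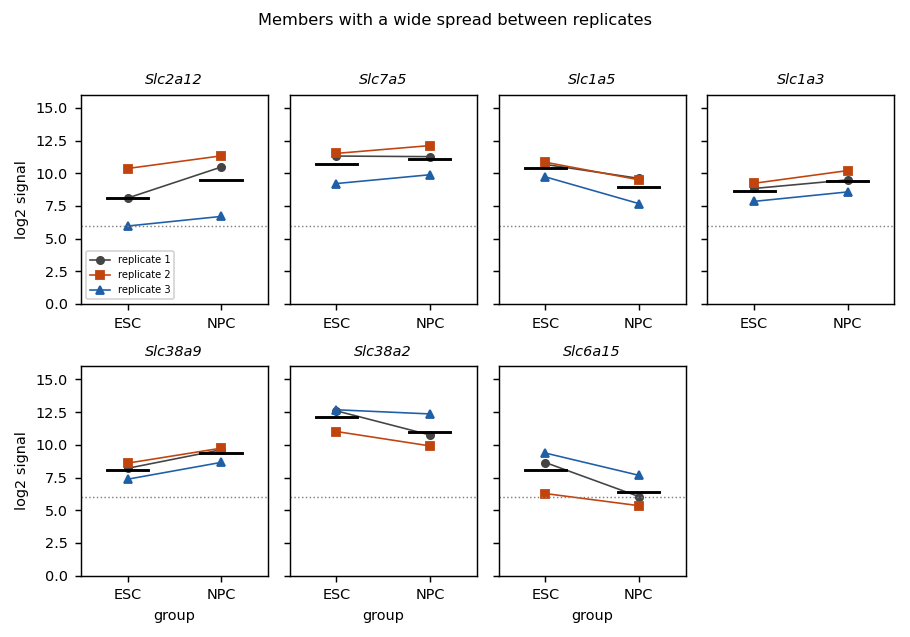
Log2 signal on each array of 7 carriers with a range of at least 1 in ESC and in NPC, chosen after their values were seen. Lines join arrays of the same replicate number and bars are group means. In Slc2a12, Slc7a5, Slc1a5, Slc1a3 and Slc38a9 replicate 3 was lowest in both groups, and in Slc38a2 and Slc6a15 it was highest.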

How the data were processed

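RNA of 3 ESC and 3 NPC samples was read on Agilent arrays with 1 dye, Cy3, after 1 round of amplification, per the labels. The deposited log2 values cover 55681 probes on 6 arrays. The base of the logarithm was taken as 2 from their range. The sorted columns were identical, which shows quantile normalisation by the authors. The submitters' processing notes name limma. For background correction, detection calls and batches, the sources used here give nothing. Of the probes, 30626 carried 1 gene symbol for 21893 genes and 25055 are unnamed here. All 103 members were in the RefSeq table of GRCm38.p6, used for names, gene order and promoters.

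The test was limma's (version 3.58.1, R 4.3.3, lmFit with eBayes, two-sided) on 1 probe a gene. It had no covariates, and p-values were adjusted over all genes by the Benjamini-Hochberg method with a threshold of 0.05. Other probes of a gene come from a fit over all 30626 named probes. Lists were described by counts and medians, with no set test. The members, lists and rules were chosen with earlier results of these data known. Every array value was given for called members that changed by 1 log2 unit or more, up to 14 rises and 14 falls, the 2 called members of largest change and the brightest member of each family, and 16 listed carriers. Of each pathway list the 2 called genes of largest change and the largest against the majority were named. Any other member could be named.

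Group means were subtracted to see whether same-numbered arrays go together. The ESC and NPC arrays of replicate 1 then correlated at r = 0.189 over genes, those of replicate 2 at 0.721 and those of replicate 3 at 0.768. The replicate number held 82.9% of the within-group sum of squares over all genes. Unrelated numbers would also hold a sizeable share with so few arrays, and that share was not computed. By the r values, same-numbered arrays went together for replicates 2 and 3 and weakly for replicate 1. For NPC replicate 1 the value with ESC replicate 2 was higher (r = 0.402). Deviations within a group cancel out, so the r values are not separate support for a link. Whether the numbers mark true pairs was not tested. The main test treated the arrays as unpaired, and the replicate block, which uses the numbers, was run as an alternative. The labels do not describe separate cultures beyond the words biological replicates. Precision is limited by the number of arrays.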

Additional observations from a re-analysis of the deposited data

How the results depend on the processing

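Among the 103 genes, the replicate block added 12 calls and ended 1, the floor of 6 ended 17, the mean of all probes added 4 and ended 1, the probe of highest variance added 1 and ended 2, and the trended, robust prior ended 1. The 1 gene of opposite sign was Slc7a14, at 1.24 when its probes were averaged and 3.47 by the more variable probe. Leaving out genes with a mean under 6 kept 53 members, of which 5 rose and 8 fell, so it tests fewer genes.

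The floor of 6 gave 2 rises and 8 falls of members. Over all genes the block gave 4147 rises and 3660 falls, the floor gave 1527 and 1297, and leaving out dim genes gave 1380 falls. Omitting 1 array at a time gave 6 to 9 rises and 9 to 16 falls of members, and 1475 to 2644 rises and 1289 to 1923 falls of all genes.

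Called genes by family changed as follows. The families held 7 genes in Slc1, 13 in Slc2, 2 in Slc3, 13 in Slc5, 21 in Slc6 and 16 in Slc7. Slc16 held 13, Slc36 held 4, Slc38 held 11 and Slc43 held 3. As background, 35.7% of all genes were called with the block and 12.9% with the floor. Without dim genes, 25.7% of all genes kept were called. With the block there were 3 in Slc1, 1 in Slc3, 8 in Slc6 and 2 in Slc43. With the floor there were 0 in Slc1 and Slc36, 1 in Slc6 and Slc38, and 2 in Slc2, Slc5 and Slc7. Without dim genes there were 0 in Slc1 and Slc36, 1 in Slc38, 2 in Slc5 and Slc6, and 3 in Slc2 and Slc7. The mean of all probes gave 2 in Slc1 and 2 in Slc16, and the probe of highest variance gave 2 in Slc16. Omitting 1 array gave 0 to 1 in Slc3, Slc16 and Slc43, 1 to 4 in Slc6, 1 to 2 in Slc38, 3 to 6 in Slc7, 4 to 6 in Slc2 and 3 to 5 in Slc5.

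Of the pathway lists, the 6 partners had 2 calls with the block, 0 with the floor and 0 to 2 without 1 array. The background shares are 35.7% of all genes with the block and 12.9% with the floor. Glucose and lactate handling had 2 to 5 of 17 without 1 array. The glutamate list had 5 to 8 of 18 without 1 array. The amino acid response had 4 of 20 with the floor and 2 to 6 without 1 array. The sensing list had 6 of 27 with the block and 0 to 3 without 1 array. The causes were not tested. Changes under about 6 are limited by signal near the bottom of the scale.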
